A study of Sus scrofa with 20 samples.

Results

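The smooth muscle and pericyte markers described here were 10 genes taken by symbol from a list of markers of mural cells, the cells that wrap blood vessels. All 10 had an Ensembl identifier in the count table, out of 31907 genes. Of these, 5 encode proteins of the contractile apparatus or its scaffold (ACTA2, MYH11, TAGLN, CNN1 and DES) and 5 encode receptors, signalling proteins or surface proteins (PDGFRB, RGS5, NOTCH3, MCAM and CSPG4). Their counts were compared between backfat, the fat layer under the skin of the back, and liver of 5 boars of Nanchukmacdon, a Korean pig breed, with 5 RNA-seq libraries per tissue. The labels describe all animals as WT, with disease state Normal and 22 months of age. The methods of the study give another average age, and tissue is the condition that separated the groups. RNA came from pieces of whole tissue, in which fewer cells of a type and less RNA per cell cannot be told apart. Libraries are named by tissue and by the boar number in the table.

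Smooth muscle cells form the contractile wall of arteries and veins, and pericytes lie on capillaries within the basement membrane that they share with the endothelium. Both are recruited by platelet-derived growth factor B, which endothelial cells secrete and which mural cells bind through the receptor PDGFRB, and the smooth muscle state is maintained by signalling from Jagged 1 on the endothelium to NOTCH3 on the mural cell. In liver, the hepatic stellate cells of the sinusoids take the place of pericytes. Contractile genes of smooth muscle are driven by serum response factor with its cofactor myocardin.

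Libraries held 43820042 to 61772737 counts, and every member had between 148 and 25685 counts in every library. At that depth the spread between libraries of a tissue and not the number of reads limited the precision. All 10 passed the filter on low counts, after which 16275 genes were tested. The tissues matched their labels, with 8 of 8 adipocyte markers higher in backfat and 9 of 9 hepatocyte markers higher in liver. Liver 67 stood apart, with 44.5% of its counts on the mitochondrial genome against 6.38% to 20.2% in the other 9 libraries and a summed hepatocyte marker level of 21140 counts per 1000000 counts of the library (CPM) against 66960 to 86780 in the other livers. Among the backfat libraries, backfat 69 had the highest summed level of hepatocyte markers (707 CPM against 202 to 295). Summed levels of the 9 skeletal muscle markers that could be matched were 618, 164, 209, 39.4 and 16.3 CPM in backfat of boars 65, 67, 69, 71 and 72 and 4.47, 150.5, 2.70, 4.24 and 3.63 CPM in liver. Where the fold change of a member rests on these libraries, it is given with and without them. Levels, their order, ratios, coefficients of variation and likeness to other genes are given with all libraries only.

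Of the 10 members, 9 were higher in backfat at a false discovery rate (FDR) of at most 0.05 (edgeR's quasi-likelihood test after TMM normalization, a scaling that corrects for the make-up of a library, adjusted over all genes tested), and the other, DES, was higher in liver. Over all genes the same threshold was passed by 28.0% in the direction of backfat and by 27.0% in the direction of liver. A gene was called when its log2 fold change also reached 2, in either direction. On that rule 4 members were called higher in backfat (RGS5, NOTCH3, MCAM and CSPG4), where 11.1% of all genes were called. None was called higher in liver, where 11.2% of all genes were called, and DESeq2 and limma-voom also called none. All 4 called genes were receptor, signalling or surface members, and 0 of the 5 contractile members was called. The log2 fold change of backfat over liver had a median of 1.69 over the 10 members, 1.02 over the contractile members and 2.50 over the others, beside 0.0001 over all genes tested. In 6 members every backfat library was above every liver library, against 22.9% of all genes, and these were ACTA2 and the 5 receptor, signalling and surface genes. In no member was the reverse seen, against 19.7% of all genes. When counts were scaled by library size alone, the median of all genes shifted by 0.71 on the log2 scale toward backfat, the members called rose to 6 with ACTA2 and PDGFRB, and the called genes over all split into 2874 higher in backfat and 1340 higher in liver instead of 1814 and 1819.

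**Figure D1:**
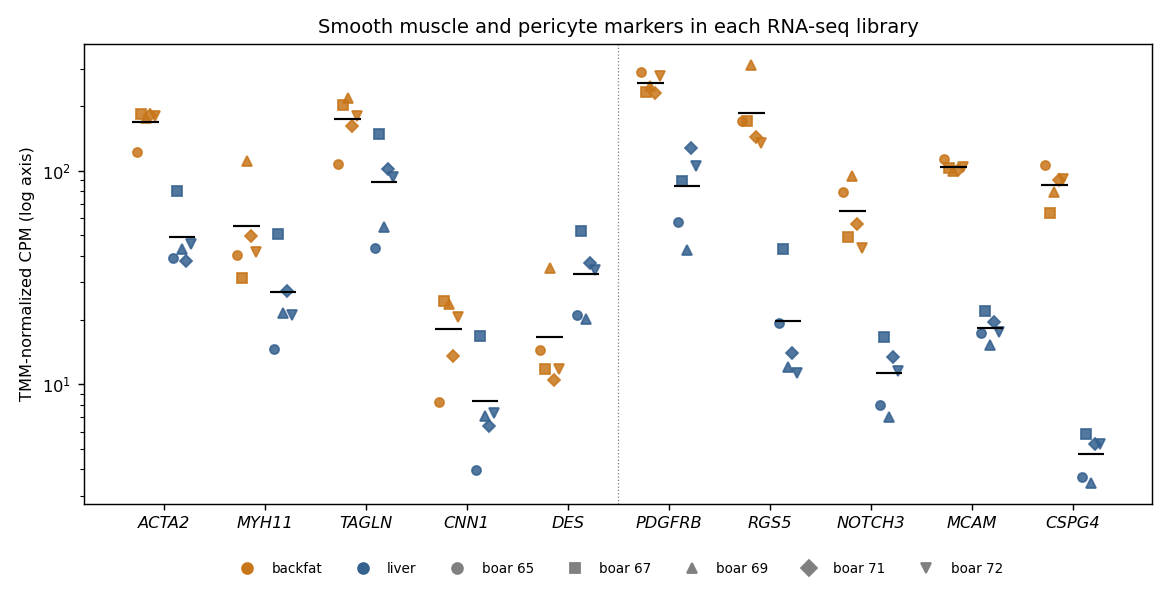
TMM-normalized CPM of each member (log axis) in the 5 backfat and 5 liver libraries, with the shape of a point giving the boar and the black line the mean of a tissue. The 5 receptor, signalling and surface genes on the right and ACTA2 separated the tissues without overlap, while MYH11, TAGLN, CNN1 and DES overlapped and DES had its higher mean in liver (32.9 against 16.7 CPM).

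**Figure D2:**
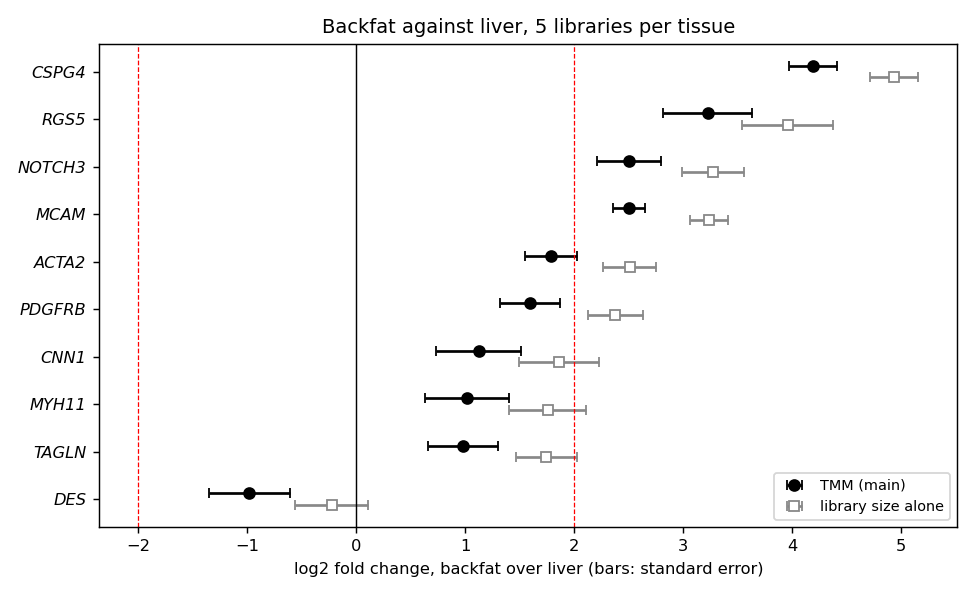
Log2 fold change of backfat over liver for each member, with bars of 1 standard error, after TMM (filled) and after scaling by library size alone (open), and dashed lines at 2 and -2. CSPG4 had the largest value (4.19) and DES was the member below 0 (-0.98), and scaling by library size alone moved every member toward backfat without turning DES (-0.23).

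ACTA2 encodes alpha smooth muscle actin, the main actin of the contractile filaments of vascular smooth muscle (chr14:100868145-100886732, minus strand, 9 exons). Levels in this and the following paragraphs are TMM-normalized CPM, and they are listed in the order of boars 65, 67, 69, 71 and 72. Summed levels of a list are instead CPM scaled by library size alone, here and above. ACTA2 stood at 123, 184, 176, 182 and 179 CPM in backfat and at 39.0, 80.0, 43.0, 37.6 and 45.2 CPM in liver. The tissues did not overlap, although backfat 65 lay below the other backfat libraries and liver 67 above the other livers. The mean was 169 ± 26.1 CPM in backfat and 48.9 ± 17.6 CPM in liver (SD, n = 5), a 3.45-fold difference, with a log2 fold change of 1.79 (SE 0.23, edgeR FDR 3.57e-05) that stayed below the threshold of 2. Without liver 67 it was 2.002 and ACTA2 was called (FDR 1.40e-06), and without backfat 65 it was 1.89 (FDR 4.94e-05). Reads that map to several places were not counted, and the actins are a family of closely alike proteins. How far reads shared between actin genes affect the level of ACTA2 was not tested. The visceral smooth muscle actin ACTG2 was at 12.7 ± 8.18 CPM in backfat and 2.77 ± 2.07 CPM in liver (log2 fold change 2.18, edgeR FDR 0.00641, and 1.78 without backfat 69). Per kb of exons ACTG2 had a median of 0.0418 of the level of ACTA2 in backfat and 0.0312 in liver.

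TAGLN encodes transgelin, or SM22 alpha, an actin-binding protein of smooth muscle (chr9:44561756-44567385, plus strand, 5 exons). Its levels were 107, 203, 219, 161 and 181 CPM in backfat and 43.2, 148, 54.7, 102 and 93.3 CPM in liver. Backfat 65, the lowest backfat library, lay below liver 67, so the tissues overlapped, yet backfat was higher in 5 of 5 boars. The means were 174 ± 43.4 and 88.2 ± 41.6 CPM (SD, n = 5), a 1.97-fold difference with a log2 fold change of 0.98 (SE 0.32, edgeR FDR 0.0202). Leaving out single libraries moved it between 0.83 and 1.21, with an edgeR FDR of 0.0465 at most, and without backfat 65 it was 1.12. TAGLN per kb was 0.910 to 1.29 times ACTA2 in backfat and 1.16 to 2.83 times ACTA2 in liver.

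CNN1, calponin 1, binds actin and restrains the myosin ATPase of smooth muscle (chr2:70183370-70190756, plus strand, 7 exons). In backfat it was at 8.30, 24.6, 23.8, 13.6 and 20.7 CPM, and in liver at 3.97, 16.9, 7.13, 6.41 and 7.35 CPM. Liver 67 again reached into the range of backfat, and backfat was higher in 5 of 5 boars. The mean of 18.2 ± 7.05 CPM in backfat was 2.18 times the 8.35 ± 4.97 CPM of liver (SD, n = 5), with a log2 fold change of 1.12 (SE 0.39, edgeR FDR 0.0267). Leaving out single libraries kept CNN1 at an FDR of at most 0.05 in 3 of 10 cases. The FDR was above that, at 0.0666 at most, without any of backfat 67, 69 and 72 and liver 65, 69, 71 and 72, and without liver 67 the log2 fold change was 1.51 (FDR 0.00188).

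MYH11 encodes the smooth muscle myosin heavy chain, a defining marker of mature smooth muscle (chr3:7002667-7143093, plus strand, 43 exons). Levels of 40.4, 31.4, 111, 49.5 and 41.6 CPM in backfat faced 14.6, 50.3, 21.6, 27.4 and 21.2 CPM in liver. Backfat 69 and liver 67 were far above the other libraries of their tissue, and backfat was higher in 4 of 5 boars, boar 67 being the exception. The means were 54.8 ± 32.0 and 27.0 ± 13.8 CPM (SD, n = 5), a 2.03-fold difference with a log2 fold change of 1.02 (SE 0.38, edgeR FDR 0.0396). Without backfat 69 the log2 fold change was 0.60 (FDR 0.130). The FDR was also above 0.05, at 0.0949 at most, when backfat 71 or any of liver 65, 69, 71 and 72 was left out. An uncharacterized gene, LOC110259859, overlaps MYH11 on the minus strand in the RefSeq annotation, and counting did not use strand.

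DES encodes desmin, the intermediate filament of muscle cells, which stellate cells also contain (chr15:121428539-121435426, plus strand, 9 exons). DES was the only member with a higher mean in liver. Its levels were 14.5, 11.8, 35.0, 10.4 and 11.8 CPM in backfat and 21.1, 52.1, 20.1, 37.0 and 34.3 CPM in liver. Backfat 69 alone lay within the range of liver, and it was higher than liver in its own boar, while in the other 4 boars liver was higher. The means were 16.7 ± 10.3 and 32.9 ± 13.1 CPM (SD, n = 5), a 1.97-fold difference in favour of liver, with a log2 fold change of -0.98 (SE 0.37, edgeR FDR 0.0394). Without backfat 69 it was -1.43 (FDR 0.00131), and without liver 67 it was -0.80 (FDR 0.0717). Any of backfat 65, 67, 71 and 72 and liver 71 and 72, left out singly, also took DES above an FDR of 0.05, to 0.0917 at most. With the boar as a block, which pairs the libraries of 1 animal, the value was -1.08 (FDR 0.0511), and with library size alone it was -0.23 (FDR 0.567). Scaled by library size alone, summed skeletal muscle markers were at 618, 164, 209, 39.4 and 16.3 CPM in backfat. On that scale DES was at 20.8, 16.1, 42.9, 12.8 and 13.95 CPM there. In liver the markers were at 4.47, 150.5, 2.70, 4.24 and 3.63 CPM and DES at 19.3, 37.6, 17.6, 24.0 and 26.1 CPM. Liver 67 thus had the most of these markers and the highest DES among the livers, while backfat 65 had the most markers and backfat 69 the highest DES in backfat. The part of skeletal muscle in the levels of DES was not tested.

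The ratio of DES to the other contractile genes does not depend on how libraries are scaled. The log2 ratio of counts of TAGLN to DES was 3.51 ± 0.68 in backfat and 1.38 ± 0.19 in liver (SD, n = 5), a difference of 2.13, and no liver library reached the range of backfat. Per kb of exons DES had 0.0352 to 0.122 of the level of ACTA2 in backfat and 0.288 to 0.607 in liver, without overlap. The ratio of MYH11 to ACTA2 per kb was 0.0419 to 0.154 in backfat and 0.0919 to 0.179 in liver, and that of CNN1 to ACTA2 was 0.0476 to 0.0950 and 0.0716 to 0.149. These ranges overlapped between the tissues.

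PDGFRB encodes the receptor for platelet-derived growth factor B (chr2:151155753-151192818, minus strand, 23 exons). Backfat held 290, 233, 250, 229 and 276 CPM and liver 57.7, 89.5, 42.7, 128 and 104 CPM. The lowest backfat library was above the highest liver library. Its means of 255 ± 26.5 and 84.4 ± 34.5 CPM (SD, n = 5) differed 3.03-fold, and the log2 fold change of 1.60 (SE 0.28, edgeR FDR 0.000345) made PDGFRB the one receptor or surface gene below the threshold of 2. PDGFRB was also the member of this group for which liver 67 was not the highest liver library.

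RGS5 encodes a regulator of G protein signalling that is abundant in pericytes (chr4:87286953-87340816, plus strand, 5 exons). It was at 170, 170, 312, 143 and 135 CPM in backfat and at 19.4, 42.8, 12.02, 14.1 and 11.3 CPM in liver. No liver library came near backfat, although backfat 69 and liver 67 each stood far above the rest of their tissue. The means of 186 ± 72.2 and 19.9 ± 13.2 CPM (SD, n = 5) differed 9.35-fold, with a log2 fold change of 3.23 (SE 0.41, edgeR FDR 2.67e-05). Leaving out single libraries moved it between 2.96 and 3.67.

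NOTCH3 is the Notch receptor of mural cells (chr2:62364507-62402348, plus strand, 33 exons). Levels in backfat were 79.3, 48.7, 94.0, 56.3 and 43.5 CPM against 8.01, 16.6, 7.03, 13.5 and 11.6 CPM in liver. Every backfat library was above every liver library. The difference was 5.68-fold, from 64.4 ± 21.5 to 11.3 ± 3.95 CPM (SD, n = 5), with a log2 fold change of 2.50 (SE 0.29, edgeR FDR 1.28e-05). Tested against a change of 2 with edgeR's glmTreat, it did not pass (FDR 0.0818). An uncharacterized gene, LOC100628051, overlaps NOTCH3 on the same strand in RefSeq.

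MCAM, or CD146, is an adhesion molecule of mural cells that endothelial cells also carry (chr9:46506375-46522091, minus strand, 16 exons). Its levels hardly varied within a tissue, at 113, 103, 98.99, 100.4 and 104 CPM in backfat and 17.4, 21.9, 15.2, 19.6 and 17.7 CPM in liver. The groups were far apart. Its coefficient of variation of 5.23% in backfat and 13.8% in liver was the lowest of the members, where the median of all tested genes was 23.2% and 33.04%. The log2 fold change was 2.50 (SE 0.15, edgeR FDR 3.82e-08) and the means were 104 ± 5.43 and 18.3 ± 2.53 CPM (SD, n = 5). The gene CBL overlaps MCAM on the opposite strand.

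CSPG4, or NG2, is a chondroitin sulfate proteoglycan on the surface of pericytes (chr7:57949182-57988602, plus strand, 10 exons). In backfat it stood at 106, 63.3, 79.1, 90.3 and 90.9 CPM and in liver at 3.69, 5.86, 3.46, 5.25 and 5.29 CPM. The groups lay furthest apart of the 10 members, with no liver library above 5.86 CPM. The mean of 85.9 ± 15.8 CPM was 18.3 times the 4.71 ± 1.07 CPM of liver (SD, n = 5), with a log2 fold change of 4.19 (SE 0.22, edgeR FDR 1.90e-08). The level of CSPG4 per kb was 0.210 to 0.304 of that of PDGFRB in backfat and 0.0317 to 0.0626 in liver, and the same ratio for RGS5 was 0.559 to 1.43 and 0.123 to 0.545. Neither ratio overlapped between the tissues. For NOTCH3 to PDGFRB it was 0.120 to 0.286 in backfat and 0.0802 to 0.141 in liver, which overlapped.

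Ordered by fold change, the members ran from CSPG4 through RGS5, NOTCH3, MCAM, ACTA2, PDGFRB, CNN1, MYH11 and TAGLN to DES. Neighbours in this order were set side by side by the log2 ratio of their counts in each library, which is given as a description without a test, since the order itself came from these libraries. The mean ratio of MCAM to ACTA2 differed by 0.68 between backfat and liver, and its values did not overlap. That of RGS5 to NOTCH3 differed by 0.84 and that of CSPG4 to RGS5 by 0.85, and the values of both overlapped between the tissues. NOTCH3 and MCAM kept nearly the same mean ratio in both tissues (-0.75 in each, SD 0.47 and 0.34, n = 5). For the pairs that lead from ACTA2 through PDGFRB, CNN1 and MYH11 to TAGLN, the differences were from -0.08 to 0.52, within the spread of the ratios between libraries.

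Levels were compared between genes per kb of exons. In backfat TAGLN (87.8 ± 21.9 CPM per kb, SD, n = 5) and ACTA2 (81.7 ± 12.6) led, and they did not differ beyond their spread. PDGFRB (41.6 ± 4.31) and RGS5 (34.6 ± 13.4) followed, again within their spread, then MCAM (24.7 ± 1.29) and CSPG4 (10.8 ± 1.98). NOTCH3 (7.95 ± 2.65), MYH11 (6.50 ± 3.80), CNN1 (6.19 ± 2.40) and DES (4.97 ± 3.08) came last and overlapped each other. In liver the first 3 places were the same, with TAGLN at 44.4 ± 20.9, ACTA2 at 23.7 ± 8.52 and PDGFRB at 13.7 ± 5.61 CPM per kb. DES was the fourth at 9.80 ± 3.90 CPM per kb in liver, against the tenth place in backfat. MCAM (4.37 ± 0.60), RGS5 (3.69 ± 2.45), MYH11 (3.21 ± 1.64) and CNN1 (2.84 ± 1.69) stood close together in liver, above NOTCH3 (1.40 ± 0.49). CSPG4, the sixth in backfat, was the last in liver at 0.592 ± 0.134 CPM per kb.

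**Figure D3:**
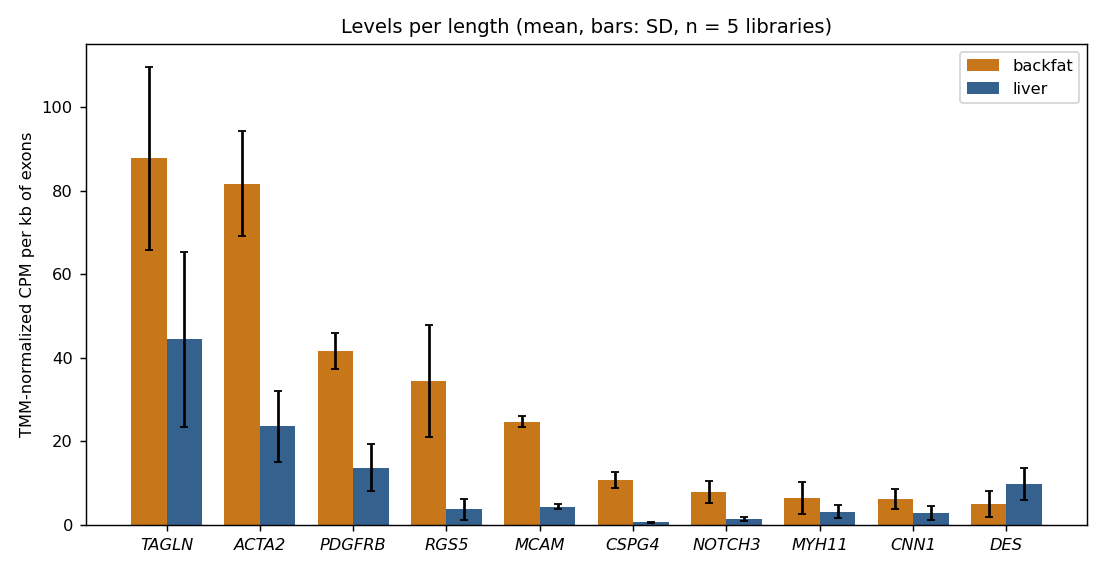
Mean TMM-normalized CPM per kb of exons of each member in backfat and liver, with bars of 1 SD over 5 libraries, ordered by the level in backfat. TAGLN and ACTA2 led in both tissues, and DES was the only member with a taller liver bar (9.80 against 4.97 CPM per kb).

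Within a tissue, the coefficient of variation ran from 15.4% (ACTA2) to 61.9% (DES) over the contractile members in backfat and from 5.23% (MCAM) to 38.8% (RGS5) over the others. In liver it ran from 36.0% to 59.4% and from 13.8% to 66.2%. Liver 67 was the highest liver library for 9 of the 10 members, including 5 of 5 contractile members, which lay 0.92 above the mean of liver on the log2 scale on average, while the receptor, signalling and surface genes lay 0.55 above it. Backfat 69 was above the mean of backfat for 5 of 5 contractile members (0.67 on average) and was the highest backfat library for 5 of the 10. Backfat 65 was below the mean for 5 of 5 contractile members (-0.49 on average) and yet the highest for 3 of the 5 others, PDGFRB, MCAM and CSPG4. Liver 69 was below the mean of liver for all 10 members. When backfat 65, backfat 69 and liver 67 were left out together, a choice made after these values were seen, all 10 members were at an FDR of at most 0.05, 9 in the direction of backfat. ACTA2 (log2 fold change 2.15) then joined the called genes, and DES was at -1.31 (edgeR FDR 0.00218). The part of the high mitochondrial share, the low hepatocyte markers and the skeletal muscle markers of liver 67 in its levels of these genes was not tested.

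**Figure D4:**
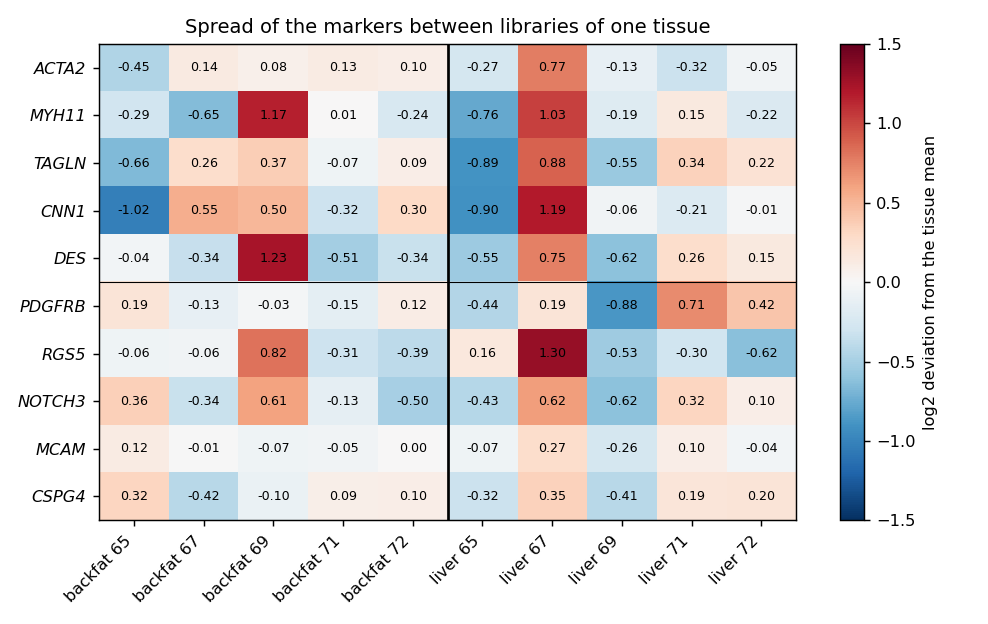
Log2 deviation of each member (rows) in each library (columns) from the mean of its tissue, with the colour scale from -1.5 to 1.5 and the contractile members above the line. Liver 67 is above the mean in all 10 rows and backfat 69 in the 5 contractile rows, with 1.23 for DES and 1.17 for MYH11.

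The genes whose deviations followed those of the members most closely were ranked by Pearson's r over the 10 libraries after the tissue means were removed, as a description without a test, since the libraries and their scaling are shared. For the mean of the contractile members they were TFPI2 (r = 0.962), COL23A1 (0.949), TUSC3 (0.949), TM4SF1 (0.943) and FUT7 (0.940). For the mean of the receptor, signalling and surface members they were ARHGEF3 (r = 0.980), CD34 (0.976), HSD17B1 (0.969), IFT56 (0.967) and SLA-DOA (0.967). With library size alone CD34, HSD17B1 and SLA-DOA fell to the ranks 46, 32 and 29. Each member was also set against the mean of the other 4 of its group, and r was between 0.714 for DES and 0.861 for TAGLN among the contractile genes. In the other group it ran from 0.382 for RGS5 and 0.527 for PDGFRB through 0.658 for CSPG4 to 0.838 for MCAM and 0.872 for NOTCH3. Within backfat alone, r in that group was 0.143 for MCAM, 0.149 for CSPG4, 0.321 for PDGFRB, 0.370 for RGS5 and 0.875 for NOTCH3. Within liver alone it was 0.985, 0.897, 0.584, 0.390 and 0.964 in the same order. With library size alone, r over the 10 libraries was 0.557, 0.522, 0.269, 0.380 and 0.824. The contractile genes had 0.502 to 0.776 within backfat and 0.827 to 0.957 within liver.

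Other genes of the same apparatus and pathways were counted from lists, beside the background of 11.1% and 11.2% called in each direction. Of 29 other contractile genes with an identifier, 8 were called toward backfat (5 without backfat 69) and 0 toward liver, 16 and 1 were at the FDR alone, and the median log2 fold change was 0.94, close to the 1.02 of the contractile members. The most abundant of them were VIM, the intermediate filament of mesenchymal cells in general (log2 fold change 4.01, 2112 ± 161 against 131 ± 69.7 CPM), the laminin receptor ITGA7 (6.01, 779 ± 117 against 12.1 ± 11.2 CPM) and the myosin light chain MYL6 (0.70, edgeR FDR 0.0176). Of 11 regulators of contractile genes, 3 were called toward backfat and 1 toward liver, with 6 and 1 at the FDR alone. KLF4, which represses contractile genes, had a log2 fold change of 4.26, MEF2C had 2.05 (1.90 to 1.98 without any of backfat 67 and 69 and liver 65, 69 and 72) and the myocardin relative MRTFB had 1.60 (edgeR FDR 2.22e-05). The guanylate cyclase subunit GUCY1B1, named for being the other one called, had 2.18. GATA6, a factor of vascular smooth muscle, went the other way with -2.95 (4.89 ± 2.04 against 37.8 ± 8.70 CPM). MYOCD, myocardin itself, was named after its values were seen, and it was at 0.628 ± 0.380 CPM in backfat and 0.553 ± 0.611 CPM in liver (edgeR FDR 0.828).

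Ligands of the receptors were measured in the same libraries. Among 5 genes of platelet-derived growth factors and the other receptor, 3 were called higher in backfat, 5 passed the FDR alone and the median log2 fold change was 2.19. PDGFB, the ligand of PDGFRB, was at 79.1 ± 5.13 CPM in backfat and 8.42 ± 2.90 CPM in liver (SD, n = 5), with a log2 fold change of 3.23 (edgeR FDR 2.59e-07). PDGFD, which also binds PDGFRB, had 2.34 and the receptor PDGFRA 2.19. Of 14 genes of the Notch pathway other than NOTCH3, 3 were called higher in backfat and 8 passed the FDR alone, with a median of 1.08. JAG1, the Jagged 1 ligand, had a log2 fold change of 2.34, at 139 ± 17.7 against 27.6 ± 11.3 CPM. The other genes called, named for that, were the ligand DLL4 (2.48) and the target HEY1 (2.87). The other targets of the list were named after their values were seen. HES1 (0.71, edgeR FDR 0.0613), HEY2 (1.07, edgeR FDR 0.171) and HEYL (-0.215, edgeR FDR 0.602) did not pass the FDR. NRARP (1.43, edgeR FDR 0.00233) passed the FDR alone. The receptors NOTCH1 (0.10, edgeR FDR 0.732) and NOTCH2 (0.56, edgeR FDR 0.114), the most abundant Notch genes beside JAG1, did not pass the test. NOTCH4, the remaining receptor, named after its values were seen, was at 78.6 ± 11.7 CPM in backfat and 36.7 ± 22.9 CPM in liver (log2 fold change 1.10, edgeR FDR 0.0114).

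Of 18 other pericyte genes tested, 9 were called higher in backfat and 3 higher in liver, with a median log2 fold change of 2.26. The adhesion receptor ADGRF5 had 2.96. How far other cells of backfat, such as endothelial cells, fibroblasts or adipocytes, contribute to the 9 genes was not tested. Those called higher in liver were the aminopeptidase ANPEP (-2.85), the metalloreductase STEAP4 (-2.73) and the transcription factor FOXS1 (-2.04), of which ANPEP is also carried by hepatocytes. FOXS1 had 45.6, 343, 78.6, 48.7 and 188 CPM in liver, and its log2 fold change was -1.44 without liver 67, -1.95 without backfat 71 or liver 72, -1.60 in limma-voom and -1.27 with library size alone, so that 2 genes of this list were then called higher in liver. Markers of hepatic stellate cells were also counted, with 7 of 10 called higher in liver and a median of -2.71. None was called higher in backfat by edgeR, DESeq2 or limma-voom, and 1 was higher there at an unadjusted p under 0.05 in each. The lectin COLEC11, one of them, had -8.12, at 69.1 ± 21.4 CPM in liver and 0.254 ± 0.273 CPM in backfat. The most abundant of that list, ECM1 (0.48, edgeR FDR 0.0602) and NGFR (0.14, edgeR FDR 0.761), did not pass. DES had the same direction as the called genes of the stellate cell list. Within liver, that list summed to 300, 178, 255, 190 and 234 CPM in the order of boars. On the same scale, library size alone, DES was at 19.3, 37.6, 17.6, 24.0 and 26.1 CPM. The part of those cells in the level of DES was not tested.

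Markers of other cells were set beside the members. Of 9 endothelial markers, 5 were called higher in backfat and 8 passed the FDR alone, with a median log2 fold change of 2.05, between those of the contractile and of the other members. KDR, one of those called and named after its values were seen, had 2.05. It had 1.92 to 1.96 when any 1 of backfat 65, backfat 69, liver 67 and liver 71 was left out. PECAM1 had 3.02 and CDH5 2.44, while EGFL7 had 0.25 (edgeR FDR 0.622). Scaled by library size alone, their summed level was 1422 to 2320 CPM in backfat and 280 to 505 CPM in liver. The highest libraries were backfat 69 and liver 67, as for the contractile members. The summed level of the 10 members on that scale was 1274 to 1715 CPM in backfat and 199 to 378 CPM in liver. The same pair of libraries was highest. Of 9 skeletal muscle markers, 0 were called by edgeR or DESeq2, which also had 0 at an unadjusted p under 0.05, while limma-voom called 4 higher in backfat and edgeR called 6 without liver 67. ACTA1, CKM and TNNT3 were the most abundant of these, and ACTA1 was between 2.98 and 299 CPM in backfat. How far endothelial or skeletal muscle RNA moves with the members beyond this was not tested.

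**Figure D5:**
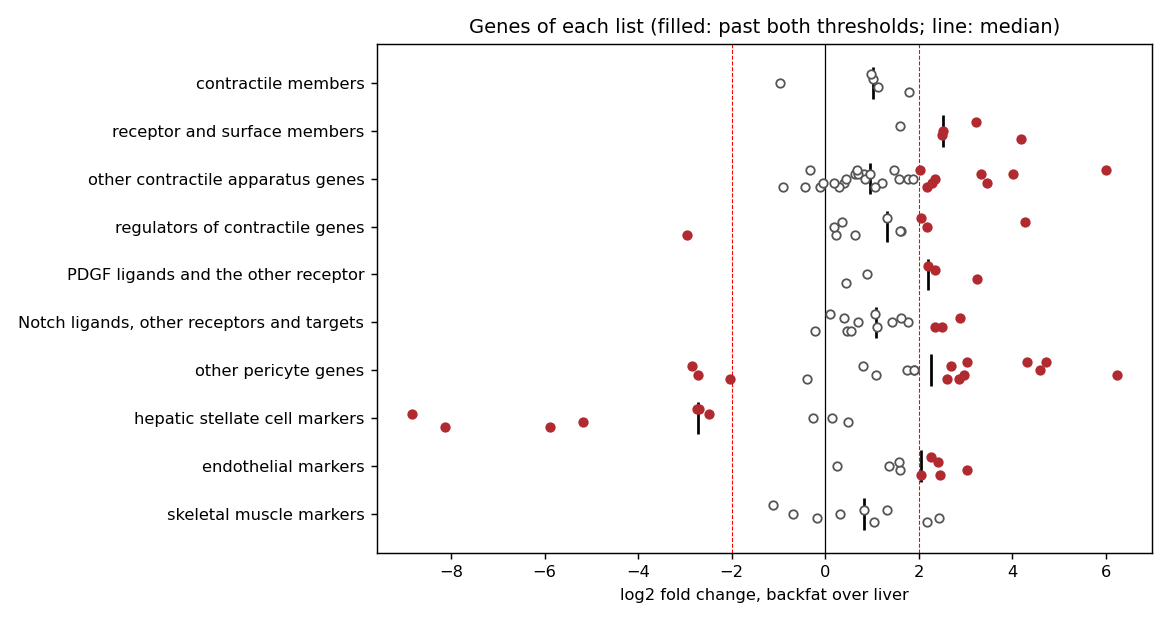
Log2 fold change of backfat over liver for every tested gene of the members and of 8 other lists, with filled points for genes past both thresholds, short lines for the median of a list and dashed lines at 2 and -2. The receptor and surface members had a median of 2.50 and the other pericyte genes 2.26, while the stellate cell markers had -2.71.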

How the data were processed

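RNA-seq was analysed in 5 backfat and 5 liver libraries of 5 boars. The bisulfite libraries were not used here, since their deposited calls carry no genomic position. According to the methods and the file header, the authors checked reads with FastQC, trimmed them with Trimmomatic, mapped them with HISAT2 to Sscrofa11.1 and counted read pairs over exons with featureCounts 2.0.1 and Ensembl release 99, without strand and without reads that map or overlap at several places. The deposited values are raw counts per gene, with the summed exon length, and are not normalized.

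Counts were filtered with filterByExpr, normalized by TMM and tested in R 4.3.3 with edgeR 4.0.16 (glmQLFit and glmQLFTest, with tissue alone in the model), with Benjamini-Hochberg adjustment across 16275 genes. Calls required an FDR of at most 0.05 and an absolute log2 fold change of 2 or more. Alternatives were library size alone, DESeq2's size factors, DESeq2 1.42.0, limma-voom (limma 3.58.1), glmTreat, other filters on low counts (none, or 10 counts in every library), no mitochondrial genes, the boar as a block and leaving out each library. Ratios were computed in Python 3.11.15, and figures were drawn with matplotlib 3.10.9. On simulated data with 200 genes changed by a log2 fold change of 3, the backfat and liver fit over 16275 genes called 194 of them and 4 unchanged ones. All other genes had the same mean in both tissues there, unlike in the real data. The simulation therefore did not test the scaling between tissues.

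Boar numbers come from the column names, and both tissues came from the same 5 boars, so libraries are paired by animal. Deviations of the 2 libraries of a boar correlated with r between 0.049 and 0.238, and 4 of 5 backfat libraries correlated best with their own boar. Replicate numbers in the labels do not name boars, so single columns were tied to a tissue with certainty and to an animal by their names. The members and lists were chosen with earlier results of these data known. The genes named were all 10 members, the 3 most abundant tested genes of each other list, those called against the majority of a list, and the 5 genes most like each group of members, and genes named outside this rule are marked. Symbols were matched by Ensembl identifier, positions by symbol in RefSeq for Sscrofa11.1. The libraries of a tissue came from separate boars. With tissue alone in the model, the p-values measure the spread between libraries of a tissue and leave the pairing unused. That spread holds differences of animal, tissue piece and library together. Some items are not reported here.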

Additional observations from a re-analysis of the deposited data

Results flagged for a closer look

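Each member was examined in each tissue for a library far from the other 4. The distance from the extreme library to its neighbour, as a share of the spread from lowest to highest, exceeded Dixon's critical value (0.71) in 7 of the 20 combinations of a member and a tissue. Chance gives about 1 in 20. Backfat 65 was the lowest backfat library for ACTA2, at 122.6 CPM. Liver 67 was the highest liver library for ACTA2 at 79.98 CPM, for CNN1 at 16.9 CPM and for RGS5 at 42.77 CPM. Backfat 69 was the highest backfat library for MYH11 at 110.9 CPM, for DES at 35.0 CPM and for RGS5 at 312.0 CPM. All 7 thus came from 3 libraries, and genes of 1 library share its RNA, so the flags are not independent of each other. MCAM, NOTCH3, PDGFRB, TAGLN and CSPG4 had no such library in either tissue.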

How the results depend on the processing

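No member changed its direction under any alternative, and CSPG4, RGS5 and MCAM were called under each of them. NOTCH3 was lost with edgeR's glmTreat (FDR 0.0818). ACTA2 reached a log2 fold change of 2.51 and PDGFRB 2.38 with library size alone, and ACTA2 2.002 without liver 67 and 2.15 without backfat 65, backfat 69 and liver 67. At the FDR alone, ACTA2, TAGLN and the 5 receptor, signalling and surface members passed in 19 of 19 alternatives other than glmTreat, MYH11 in 13, CNN1 in 12 and DES in 10. The count of members higher in liver at the FDR alone was 0 with library size alone, 0 with the boar as a replicate block and 0 to 1 when single libraries were left out, where 7 to 9 were higher in backfat and 4 to 5 were called. The replicate block, which pairs libraries by boar, called 4 members and 1913 and 1757 genes higher in backfat and liver, and moved no member other than DES across the FDR threshold. Over all genes, 2874 were called higher in backfat with library size alone, 1126 with glmTreat and 871 with at least 10 counts in every library, against 1814, and 1817 to 2127 when single libraries were left out. In liver 2729 were called without a filter and 981 with at least 10 counts in every library, against 1819, and 1837 to 1942 when single libraries were left out. The last filter and the unfiltered fit tested 13026 and 26315 genes. With library size alone, genes called higher in backfat rose from 8 to 12 among other contractile genes and from 9 to 12 among other pericyte genes. They also rose from 3 to 5 among regulators, from 3 to 6 in the Notch list and from 5 to 8 among endothelial markers. The level of 5 members in backfat and 2 in liver moved by more than 1 SD with library size alone. At 43820042 counts or more per library, the spread between the 5 libraries per tissue limits the folds of DES, MYH11 and CNN1. Fits without a library have 9 libraries.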

Other observations

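Fibroblast genes were also counted. Of 9, 6 were called higher in backfat and 1 higher in liver, with a median log2 fold change of 5.76, and the collagens COL3A1 (6.16), COL1A1 (5.76) and COL1A2 (5.85) were the most abundant. DPP4 went the other way with -5.46. Scaled by library size alone, their summed level was 56850 to 100300 CPM in backfat and 1051 to 1245 CPM in liver. Among the backfat libraries it was lowest in backfat 69, the one with the highest level of MYH11, DES and RGS5. PDGFRB, which fibroblasts also carry, was at 250 TMM-normalized CPM in that library, close to the mean of backfat.

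Heart muscle genes were at low levels, with 1 of 5, MYL4 (-2.69), called higher in liver and 0 higher in backfat, 0 also at an unadjusted p under 0.05 in edgeR and DESeq2, although limma-voom, and edgeR without liver 67, called 3 higher in backfat. They had summed levels of 4.56 to 11.2 CPM in backfat and 1.94 to 8.09 CPM in liver, scaled by library size alone. None of 2 mesothelium markers with an identifier was tested, and their summed level was 0.680 CPM at most.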
